A study of Homo sapiens with 8 samples.

Results

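The genes described here make the machinery that builds ribosomes: RNA polymerase I and its initiation factors, the transcription factor MYC, the abundant nucleolar proteins, the proteins of the small nucleolar RNPs, and the assembly factors of the small and large ribosomal subunits. They were chosen by name, as a list of 40 gene symbols. Of these 40 genes, 35 had at least 1 probe set that carried their symbol alone, out of 19775 symbols measured, and all 35 passed the signal filter that left 13298 genes for testing. NOP56, DKC1, BOP1 and PPAN were measured only by probe sets that also carry other symbols, and GNL3 had no listed probe set, so these 5 genes have no value here.

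The study used HepG2 cells, a line derived from a human hepatocellular carcinoma. The quercetin cultures received 3 µM quercetin, a plant flavonol, in serum-free medium for 2, 4, 12 or 24 h, and the control cultures received serum-free medium without it for the same times. All cultures had been starved of serum beforehand, for a length that the labels give once as overnight and once as 24 h, so no culture with serum is available for comparison and every time point is also a time without serum. Total RNA was measured on 8 arrays, 1 for each treatment and time, all from 1 cell line, and nothing in the labels says that the times were separate experiments. The labels name no solvent for the control cultures.

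A ribosome begins in the nucleolus, where RNA polymerase I copies the ribosomal DNA into a long precursor. SL1, UBTF and RRN3 bring the polymerase to its promoter. Small nucleolar RNPs modify the precursor, the small-subunit processome folds and cuts it, and a second set of factors assembles the large subunit. The work consumes much of a growing cell's energy, and serum withdrawal is known to lower it in many cultured cells. MYC drives many of these genes by binding, with its partner MAX, to the E-box CACGTG.

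That sequence is shown first because it marks many of the genes described. RefSeq promoter windows on GRCh38.p14, each of 300 bases from 250 before to 50 after a transcript start, were searched for CACGTG, which reads the same on both strands. A window was available for 32 of the 40 genes, and 13 of them (40.6%) held the motif, against 12.1% of the 10625 tested genes with a window and 7.26% of all 35116 windows. The sites printed below are those of 6 measured genes described further on, each given 5′ to 3′ on the gene's strand with the motif in capitals.

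NOC3L, chr10:94362903-94362932, minus strand: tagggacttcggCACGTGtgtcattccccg

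DDX21, chr10:68956604-68956633, plus strand: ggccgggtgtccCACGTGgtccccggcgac

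UTP20, chr12:101280083-101280112, plus strand: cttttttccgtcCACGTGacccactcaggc

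FBL, chr19:39846356-39846385, minus strand: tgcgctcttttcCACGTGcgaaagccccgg

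PES1, chr22:30591880-30591909, minus strand: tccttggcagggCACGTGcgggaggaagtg

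WDR43, chr2:28894658-28894687, plus strand: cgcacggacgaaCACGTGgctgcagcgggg

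Counted from the transcript start of its window, the motif begins upstream in DDX21 and UTP20, at -31 and -10, and downstream in the others, at 3 in WDR43, 6 in FBL, 13 in PES1 and 19 in NOC3L. For DDX21 and PES1 that transcript start lies inside the annotated gene, not at its outer end. The genes span chr10:68956170-68985068 (DDX21) and chr22:30576625-30607013 (PES1). A match is a description of the letters, not evidence of binding. In the deposited values the 12 measured genes with the motif had a median 24 h minus 4 h difference of 0.37 on the log2 scale. The 16 measured genes with a window but no motif had one of 0.26, and no test was made of that gap. The ranges overlapped widely, from -0.70 to 0.58 with the motif and from -1.32 to 0.78 without it. Over all measured genes of the list the median 24 h minus 4 h difference turned to -0.16 after quantile normalization and -0.19 after cyclic loess. The groups with and without the motif were not compared after rescaling.

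Several properties of the arrays bear on every value below. The 9 hepatocyte-lineage markers measured were all above the median signal, with means of 11.46 to 15.09. Of the leukocyte, fibroblast and endothelial markers, 4 of 5, 5 of 7 and 2 of 5 were also above it, with highest means of 8.50, 9.23 and 9.40. The signal filter thus also kept markers of other cell types. The standard deviation of all values was 1.74 and 1.75 on the 4 h arrays and 1.90 and 1.95 on the 24 h arrays, so the deposited values spread more widely at 24 h. The hybridisation controls averaged 11.19 to 11.35 on the control array at 2 h and both arrays at 12 h, and 11.83 to 12.11 on the other 5. The 18S rRNA control probe sets averaged 12.01, 11.62, 7.29 and 9.16 on the quercetin arrays at 2, 4, 12 and 24 h, against 8.57, 11.52, 7.35 and 9.82 on the control arrays. The 3′ minus 5′ signal of ACTB, a sign of RNA quality, was 1.11, 1.17, 0.88 and 1.39 on the quercetin arrays at 2, 4, 12 and 24 h, against 0.88, 1.12, 1.40 and 1.36 on the control arrays, so the control array at 12 h and both 24 h arrays were the highest 3. The same measure for GAPDH was 0.56, 0.61, 0.48 and 0.42 on the quercetin arrays, against 0.47, 0.61, 0.61 and 0.41 on the control arrays. For GAPDH both 24 h arrays were thus the lowest, unlike for ACTB. The part of these shifts in the results was not tested, beyond an alternative that adds the array class as a term. In whole-culture RNA, fewer cells and less RNA per cell cannot be told apart.

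Quercetin did not move any of the 35 genes past the test when averaged over the 4 times. In the additive limma fit, 0 of 35 passed an adjusted p of 0.05, as did 0 of all 13298 genes (0.0%), of which 785 had an unadjusted p under 0.05. The mean quercetin minus control differences ran from -0.25 for TAF1D to 0.27 for UTP20, and their median was 0.01, against -0.03 over all genes tested. Without the 24 h pair, or either array of it, UTP20 was at 0.09. None of the 35 kept 1 sign at all 4 times, which 13.8% of all genes did. All 24 alternative settings also called 0 of these genes.

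Single times compare 1 array with 1 array and have no replicate check. At 2, 4, 12 and 24 h the 35 genes had a median difference of -0.09, 0.04, 0.17 and -0.10, and all genes tested one of -0.06, -0.02, 0.05 and -0.10. Of the 35 genes, 8, 23, 29 and 7 were above 0 at these times, beside 41.9%, 45.7%, 59.3% and 33.8% of all genes. After quantile normalization of the same arrays the medians became 0.02, 0.05, 0.085 and 0.03, and 18, 27, 21 and 21 genes lay above 0, beside 53.9%, 49.8%, 46.5% and 49.2% of all genes. The sign at 2 h thus turned with quantile normalization and that at 24 h with quantile normalization and cyclic loess, while median centring gave -0.15 at 2 h and -0.12 at 24 h.

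**Figure D1:**
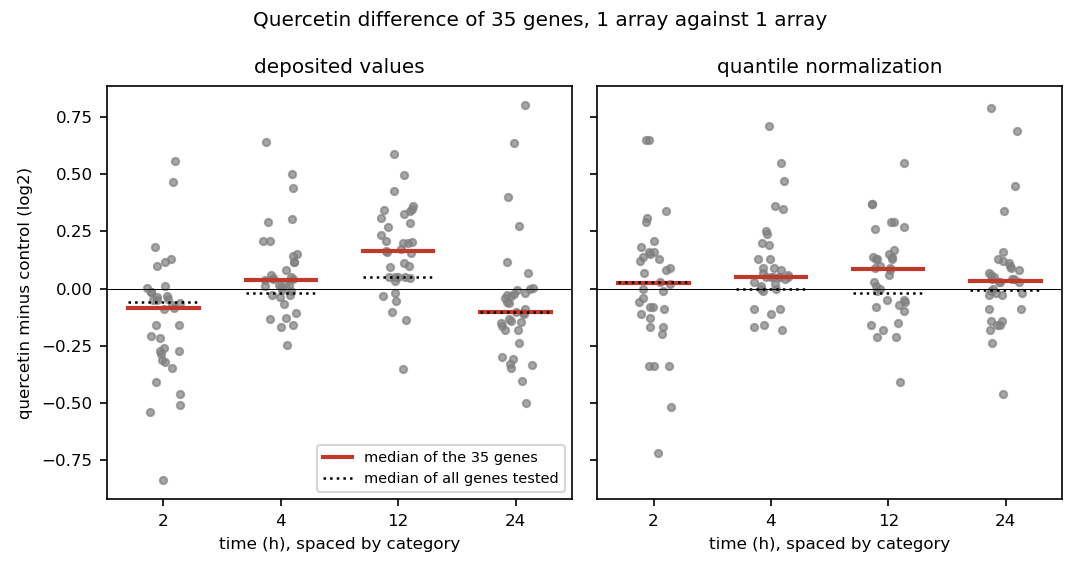
Quercetin minus control difference of each of the 35 genes (points, log2, jittered sideways) at 2, 4, 12 and 24 h, in the deposited values (left) and after quantile normalization (right). Red bars are medians of the 35 genes and dotted bars medians of all 13298 genes; at 24 h the red bar lies at -0.10 on the left and at 0.03 on the right.

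A few genes stood out at 1 time, with the treatments at least 0.5 apart on the log2 scale. At 2 h MYC was higher by 0.56 with quercetin, where 4.81% of genes were at least 0.5 higher, and RRN3, RRP1B and UTP4 were lower, at -0.84, -0.51 and -0.54, where 8.89% of genes were that much lower. At 4 h POLR1C (0.64) and WDR43 (0.50) were higher with quercetin, beside 1.5% of genes. At 12 h this held for UBTF (0.59), beside 4.19% of genes. At 24 h POLR1B (0.64) and UTP20 (0.80) were higher, beside 3.19% of genes, and UTP15 was lower (-0.50), beside 5.46%. In the other probe sets of POLR1B quercetin was lower at 24 h, at 10.12 against 10.41, 8.98 against 9.33 and 7.95 against 8.10. In the other probe set of RRP1B quercetin was higher at 2 h, at 9.26 against 9.09. Signal was low for UTP15 (7.59 and 8.09) and the UTP20 control array (7.95), below the highest leukocyte marker mean of 8.50. In the deposited values no gene of the 35 passed that size on the same side at more than 1 time. After quantile normalization WDR43 did, at 0.65 at 2 h and 0.55 at 4 h. RRP1B and UTP4 at 2 h (both -0.34) and UTP15 at 24 h (-0.46) then fell short of it, and UTP15 at 2 h (-0.52) reached it.

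The quercetin difference was also compared between the later times (12 and 24 h) and the earlier ones (2 and 4 h). No member passed that test, against 0.368% of all genes. NCL had the smallest p of the 35, with a later minus earlier difference of 0.38 ± 0.15 (SE, limma adjusted p = 0.74). Without the control array at 24 h, without the quercetin array at 24 h, or without both, 2 members passed it, NCL and NPM1.

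Over all genes tested, more were called between times in serum-free medium than for quercetin, though the times also differ in the array properties given above. The shares of all genes below are from fits to all 8 arrays. For fits with arrays left out no such share is given, so those counts of members have no background beside them. At 4 h against 2 h 0 of 35 passed the limma test, where 0.534% of all genes did, and 2350 genes had an unadjusted p under 0.05. Without the control array at 12 h, or the quercetin array at 12 h, 4 members passed it, FBL, MYC and NCL (lower) and NOC3L (higher). At 12 h against 2 h 2 of 35 passed, 1 higher and 1 lower, beside 3.0% of all genes, 1.68% higher and 1.32% lower; the count was 0 without the quercetin array at 2 h and 1 without the quercetin array at 12 h. Between 24 h and 2 h 6 passed, 5 higher and 1 lower, and these 17.1% stand beside 21.3% of all genes, 17.3% higher and 3.98% lower; the count was 2 without the quercetin array at 2 h or the control array at 24 h. Between 24 h and 4 h 11 passed, 8 higher and 3 lower, which is 31.4% beside 42.3% of all genes, 32.8% higher and 9.45% lower; the count was 2 without the control array at 4 h, 7 without the quercetin array at 4 h and 6 without the control array at 24 h. The F-test over the 4 times passed 9 of 35, beside 38.1% of all genes, and 5 without the control array at 24 h. The shares of these genes that passed at 24 h and in the F-test were thus below those of all genes in the deposited values. This order turned with the scaling for 24 h against 4 h, where the share was 51.4% beside 45.7% of all genes with median centring, 14 of 35 beside 32.4% with cyclic loess and 37.1% beside 31.2% with quantile normalization. The F-test passed 16 of the 35 with quantile normalization, or 45.7%, beside 28% of all genes, and 13, or 37.1%, beside 28.9% with cyclic loess.

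The direction of the 24 h shift depends on how the arrays are scaled. In the deposited values the median of all genes was 0.19 higher at 24 h than at 4 h and that of the 35 genes 0.26 higher, whereas the same medians were -0.01 and -0.19 with cyclic loess, and -0.035 and -0.16 with quantile normalization. The called members split 8 higher and 3 lower in the deposited values and 16 and 2 after centring each array on its median, but 1 and 13 with cyclic loess scaling, and 1 and 12 once the arrays were quantile normalized. For 24 h against 2 h the same splits were 5 and 1, 6 and 1, 2 and 4, and 2 and 3. In that order 21.3%, 22.7%, 18.1% and 15.5% of all genes were called in either direction. Changes that hold under all 4 scalings are therefore given first below: NOC3L (higher) and MYC (lower) at 12 h against 2 h, beside 2.02% of all genes; NOC3L and DDX21 (higher) and POLR1B (lower) at 24 h against 2 h, beside 11.2%; and TAF1D (higher), POLR1B and UTP20 (lower) at 24 h against 4 h, beside 21.2%.

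**Figure D2:**
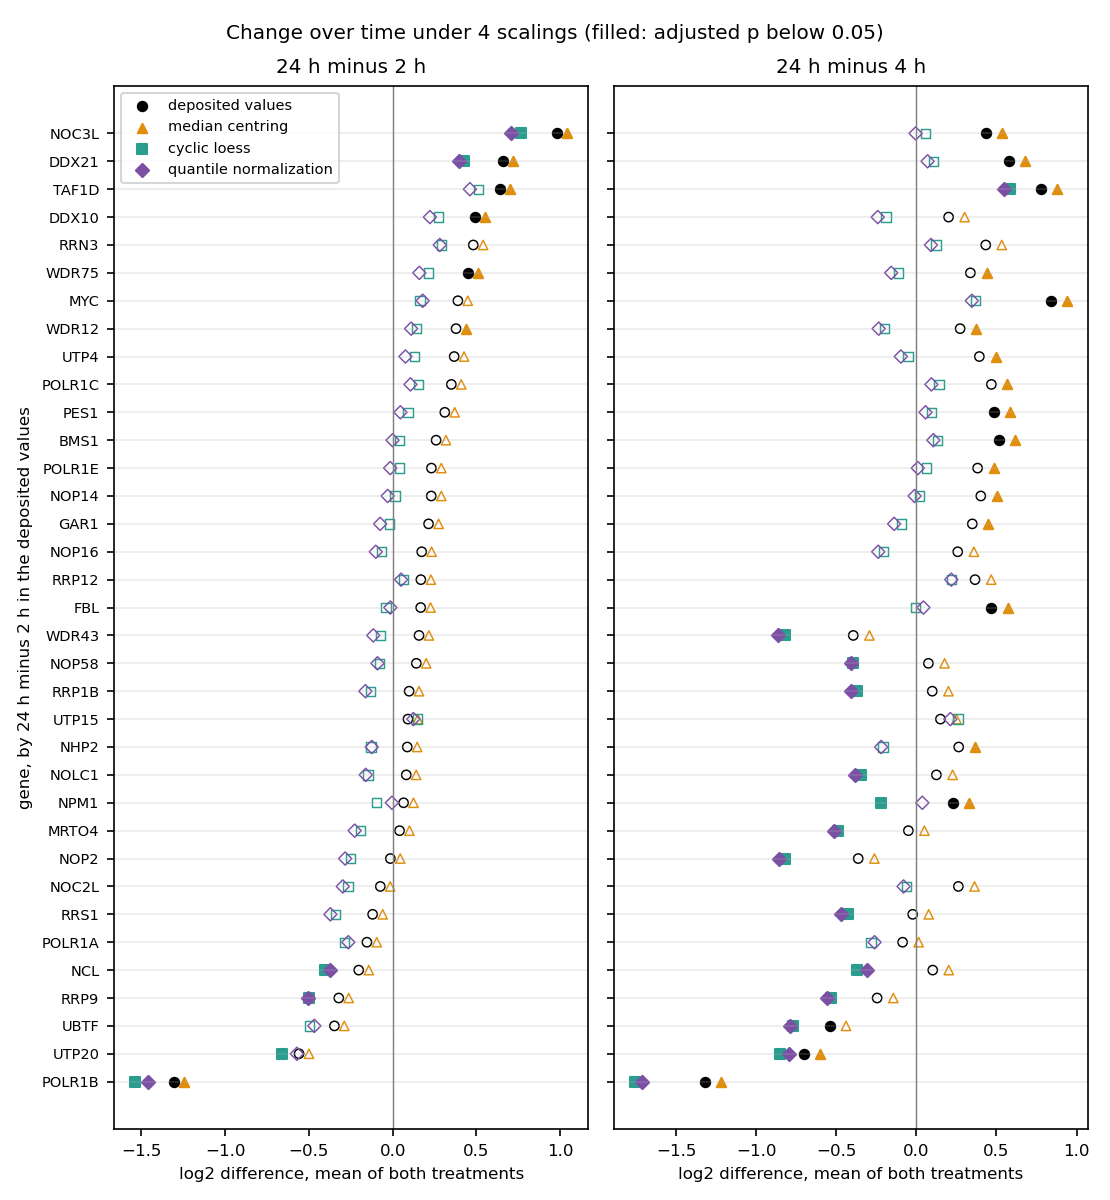
Difference of each of the 35 genes at 24 h against 2 h (left) and against 4 h (right), as log2 means of both treatments, under 4 scalings of the same arrays; filled symbols have a limma adjusted p below 0.05. Against 4 h, 8 genes are called higher and 3 lower in the deposited values (black circles), and 1 higher and 12 lower after quantile normalization (purple diamonds).

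NOC3L, a nucleolar factor needed for assembly of the large subunit, was the only gene of the 35 whose call at 24 h against 2 h held in every alternative run. Its signal was 9.40, 9.90, 10.31 and 10.27 in the quercetin arrays at 2, 4, 12 and 24 h, against 9.48, 10.07, 10.20 and 10.57 in the control arrays. Both 2 h arrays lay below the other 6, which holds for 1.9% of all genes. It rose by 0.82 ± 0.17 at 12 h against 2 h (SE, limma adjusted p = 0.011) and by 0.98 ± 0.17 at 24 h against 2 h (limma adjusted p = 0.000377). The 24 h call held in all 22 alternatives, with adjusted p between 0.000121 and 0.0272. The 12 h call was lost with the array class as a term (adjusted p = 0.0874), without the quercetin array at 2 h (0.0844) and without the quercetin array at 12 h (0.0789). The gene spans chr10:94314907-94362939 on GRCh38.p14.

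MYC, the transcription factor that promotes ribosome production, dipped at 12 h in both treatments. Its signal was 12.34, 11.69, 11.37 and 12.38 in the quercetin arrays at 2, 4, 12 and 24 h, against 11.79, 11.54, 10.87 and 12.53 in the control arrays. Both 12 h arrays lay below the other 6, as for 6.87% of all genes, and at 2, 4 and 12 h the quercetin array was the higher of the pair. In the deposited values both 24 h arrays lay above the other 6, as for 29.6% of all genes. After quantile normalization the quercetin array at 2 h, at 12.33, stood above both 24 h arrays, at 12.14 and 12.23. MYC fell by 0.94 at 12 h against 2 h (SE 0.16, limma adjusted p = 0.0017), under all 4 scalings. With the array class as a term that difference was -0.75 (adjusted p = 0.0874), and without the quercetin array at 2 h it was also -0.75 (0.0872). MYC rose by 0.84 at 24 h against 4 h (limma adjusted p = 0.000241), with 0.37 and 0.35 and no call once loess or quantile scaling was applied. Its mean quercetin difference was 0.26 ± 0.11 (SE, limma adjusted p = 0.84).

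Among the 7 genes of RNA polymerase I and its initiation factors, 1 was called higher and 1 lower at 24 h against 2 h in the deposited values, beside 17.3% and 3.98% of all genes, with a median of 0.23. TAF1D, a subunit of the promoter factor SL1, had a signal of 8.77, 8.88, 8.94 and 9.45 in the quercetin arrays at 2, 4, 12 and 24 h, against 9.18, 8.80, 9.29 and 9.78 in the control arrays. The 24 h arrays were the highest 2 of the 8. TAF1D rose by 0.78 at 24 h against 4 h (SE 0.19, limma adjusted p = 0.0024) under all 4 scalings, though without the control array at 4 h it was 0.56 (adjusted p = 0.101). The rise of 0.64 at 24 h against 2 h (limma adjusted p = 0.0189) was not called after cyclic loess or quantile normalization. RRN3, which carries the polymerase to SL1, read 8.91, 9.44, 10.08 and 9.73 in the quercetin arrays, against 9.75, 9.33, 10.04 and 9.91 in the control arrays. Its 12 h arrays were the highest and the quercetin array at 2 h the lowest. The F-test over times passed RRN3 (limma adjusted p = 0.0181), while no deposited-value contrast against 2 h did.

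POLR1B, the second-largest subunit of the polymerase, gave the largest fall of the 35, in a probe set that lay lower at 24 h against 2 h than its other 3. The probe set used, the brightest, read 11.01, 10.87, 10.41 and 9.94 in the quercetin arrays at 2, 4, 12 and 24 h, against 10.83, 11.00, 10.51 and 9.30 in the control arrays. It fell by 1.30 at 24 h against 2 h (SE 0.18, limma adjusted p = 4.86e-05), and both 24 h arrays lay below the other 6, as for 10.0% of all genes. Its suffix marks a probe set whose probes may also match other transcripts. The other 3 probe sets gave 0.42, -0.15 and -0.35 for the same difference, and the mean of all 4 gave -0.35 with a limma adjusted p of 0.14. Against 4 h the set used fell by 1.32 at 24 h (limma adjusted p = 1.27e-05), and the other 3 were also below 0, at -0.07, -0.42 and -0.43, though the call was lost with the probe set chosen among those without a suffix (-0.43, limma adjusted p = 0.0995). POLR1B is annotated at chr2:112542036-112579818 on GRCh38.p14.

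POLR1A, the largest subunit, read 9.13, 9.11, 9.55 and 8.93 in the quercetin arrays at 2, 4, 12 and 24 h, against 9.18, 9.06, 9.12 and 9.07 in the control arrays. In this probe set the quercetin array at 12 h stood above the other 7, which lay between 8.93 and 9.18. In the other probe sets of POLR1A quercetin was lower at 12 h, at 8.46 against 8.61 and 7.97 against 8.16. Their 24 h minus 2 h differences were 0.11 and 0.25, beside -0.15 in the set used. UBTF, which binds the ribosomal DNA promoter, read 9.37, 9.58, 9.39 and 8.99 in the quercetin arrays, against 9.39, 9.56, 8.80 and 9.08 in the control arrays. Both 4 h arrays were above the other 6 for UBTF, as for 6.05% of all genes. It fell by 0.54 at 24 h against 4 h (SE 0.20, limma adjusted p = 0.0319), a call lost after median centring, with the mean of its 5 probe sets (-0.09), and without any 1 of the 4 h or 24 h arrays (adjusted p between 0.059 and 0.251). UBTF was called lower at 24 h against 4 h after cyclic loess (-0.77, limma adjusted p = 0.00473) and quantile normalization (-0.79, limma adjusted p = 0.0045). POLR1C and POLR1E, further subunits, had 24 h minus 2 h differences of 0.35 and 0.23 without a call.

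**Figure D3:**
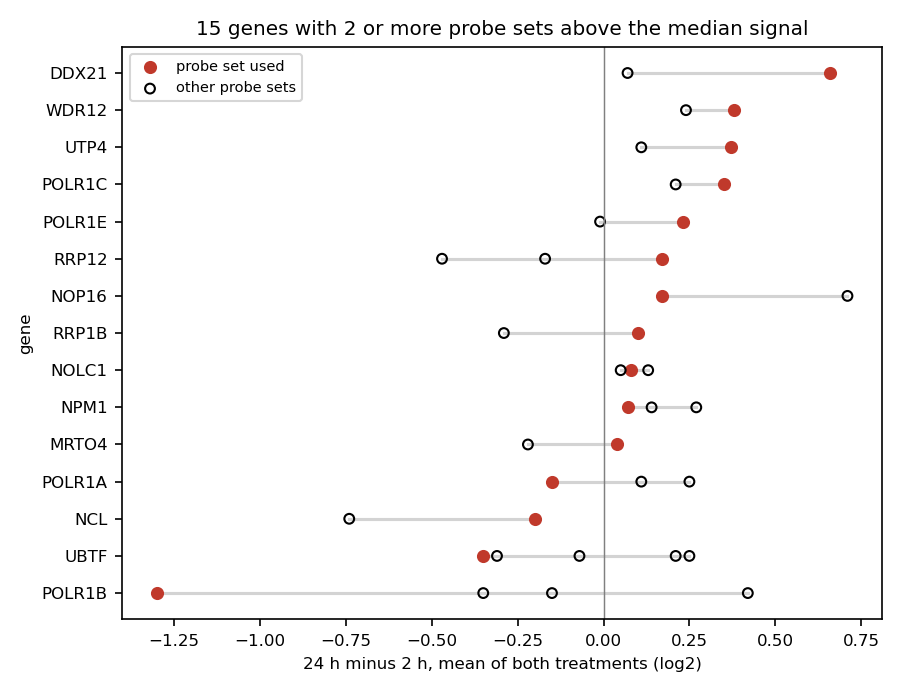
Difference at 24 h against 2 h (log2, mean of both treatments) in each probe set of the 15 genes with at least 2 probe sets above the median signal; filled points are the probe sets used. For POLR1B the used probe set is at -1.30 and the others lie between -0.35 and 0.42.

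Disagreement between probe sets was not limited to POLR1B. Of the 15 genes with several bright probe sets, all sets of a gene shared a sign in 8 genes at 24 h against 2 h, in 8 at 24 h against 4 h, in 10 at 12 h against 2 h and in 5 for the mean quercetin difference. The sign differed at 24 h against 2 h in RRP12, at 0.17 in the set used and -0.47 in the next brightest. It also differed in RRP1B (0.10 and -0.29) and MRTO4 (0.04 and -0.22). Sets with the same sign differed in size. DDX21 had 0.66 in the set used and 0.07 in the other. NOP16 had 0.17 in the set used and 0.71 in the next brightest, and 0.31 and 0.07 in sets below the median signal.

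None of the 3 abundant nucleolar proteins was called at 24 h against 2 h in the deposited values. NCL, nucleolin, read 13.19, 12.96, 13.40 and 13.15 in the quercetin arrays at 2, 4, 12 and 24 h, against 13.40, 13.02, 13.04 and 13.03 in the control arrays. NPM1, nucleophosmin, read 14.39, 14.22, 14.45 and 14.49 in the quercetin arrays, against 14.40, 14.24, 14.16 and 14.43 in the control arrays. In the deposited values the largest gap between treatments in both genes was at 12 h, at 0.36 and 0.29, with quercetin higher, but after quantile normalization it was 0.13 for NCL, whose 2 h gap was then larger in size at -0.17, and 0.10 for NPM1. NCL was called lower at 24 h against 2 h after cyclic loess (-0.40, limma adjusted p = 0.00736) and quantile normalization (-0.38, limma adjusted p = 0.00961), and at 24 h against 4 h as well (-0.37 and -0.31). NPM1 at 24 h against 4 h was called in opposite directions by scaling, at 0.23 in the deposited values (limma adjusted p = 0.0453) and -0.22 after cyclic loess (limma adjusted p = 0.0208). NOLC1, a chaperone of nucleolar RNPs, lay between 11.69 and 11.83 on all 8 arrays in the deposited values and between 11.50 and 11.94 after quantile normalization. It was called lower at 24 h against 4 h after cyclic loess (-0.35, limma adjusted p = 0.0191) and quantile normalization (-0.38, limma adjusted p = 0.0109).

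The proteins that modify the precursor showed no change that held under all 4 scalings. FBL, the methyltransferase of the box C/D particles, read 12.84, 12.63, 12.87 and 13.09 in the quercetin arrays at 2, 4, 12 and 24 h, against 13.00, 12.61, 12.82 and 13.09 in the control arrays. The treatments were close at 4, 12 and 24 h, and in the deposited values both 4 h arrays lay below the other 6, as for 17.4% of all genes. After quantile normalization the quercetin array at 4 h, at 12.84, was above that at 2 h, at 12.81. FBL rose by 0.47 at 24 h against 4 h (SE 0.11, limma adjusted p = 0.002) in the deposited values and had a difference of -0.005 after cyclic loess. RRP9, a protein of the U3 particle, read 9.77, 9.65, 9.45 and 9.32 in the quercetin arrays, against 9.64, 9.61, 9.47 and 9.45 in the control arrays. Its 24 h minus 2 h difference was -0.32 (limma adjusted p = 0.209), and it was called after cyclic loess and quantile normalization, at -0.50 in both. NOP58, a core protein of the box C/D particles, and NHP2 and GAR1, core proteins of the box H/ACA particles, had 24 h minus 2 h differences of 0.14, 0.09 and 0.21 without a call. Against 4 h, NOP58 was called lower at 24 h after cyclic loess (-0.40) and quantile normalization (-0.41). NHP2 and GAR1 were called higher there after median centring (0.36 and 0.45).

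Of the 10 factors of the small-subunit processome and later small-subunit steps, 3 were called higher and 0 lower at 24 h against 2 h in the deposited values, beside 17.3% and 3.98% of all genes. DDX21, an RNA helicase that also acts in RNA polymerase I transcription, read 11.29, 11.47, 11.57 and 12.03 in the quercetin arrays at 2, 4, 12 and 24 h, against 11.50, 11.48, 11.37 and 12.07 in the control arrays. Both 24 h arrays stood above the other 6. DDX21 rose by 0.66 (SE 0.14, limma adjusted p = 0.00216), and by 0.43 after cyclic loess and 0.39 after quantile normalization, both called. The call was lost with the mean of its 2 probe sets (0.37, adjusted p = 0.183), without the quercetin array at 2 h (0.0624) and without the control array at 24 h (0.0514). DDX21 is annotated at chr10:68956170-68985068 on GRCh38.p14.

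DDX10, another helicase of the small-subunit pathway, read 9.68, 10.11, 10.28 and 10.30 in the quercetin arrays at 2, 4, 12 and 24 h, against 9.95, 10.10, 10.23 and 10.31 in the control arrays. WDR75, a processome protein that binds the precursor early, read 10.45, 10.65, 10.73 and 10.86 in the quercetin arrays, against 10.48, 10.50, 10.63 and 10.97 in the control arrays. For both genes the 2 h arrays were the lowest and the 24 h arrays the highest in the deposited values. After quantile normalization the 2 h arrays were still the lowest. The 24 h arrays, at 10.14 and 10.01 for DDX10 and 10.66 and 10.62 for WDR75, then lay below those of 4 and 12 h. They rose by 0.49 and 0.45 at 24 h against 2 h (limma adjusted p = 0.0399 and 0.0426), and neither was called after cyclic loess or quantile normalization. Of 22 alternatives the DDX10 call was lost in 11 and the WDR75 call in 13.

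UTP20, a processome component that acts late in small-subunit maturation, peaked at 12 h and was lowest at 24 h. Its signal was 8.87, 9.08, 9.64 and 8.76 in the quercetin arrays at 2, 4, 12 and 24 h, against 8.96, 9.04, 9.31 and 7.95 in the control arrays. Both 12 h arrays were above the other 6, as for 3.01% of all genes, and both 24 h arrays below, and the control array at 24 h was 0.80 below the quercetin array. UTP20 fell by 0.70 at 24 h against 4 h (SE 0.21, limma adjusted p = 0.0103) under all 4 scalings. Without the control array at 24 h the difference was -0.35 (adjusted p = 0.33), and without the control array at 4 h it was -0.55 (0.142). The gene lies at chr12:101280105-101386618 on GRCh38.p14.

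WDR43, a processome protein of the same early subcomplex as WDR75, read 10.57, 11.14, 10.04 and 10.29 in the quercetin arrays at 2, 4, 12 and 24 h, against 10.10, 10.63, 9.84 and 10.69 in the control arrays. Quercetin was higher at 2, 4 and 12 h and lower at 24 h. WDR43 passed the F-test over times (limma adjusted p = 0.00448), with the 12 h arrays below the other 6. At 24 h against 4 h it was at -0.39 without a call in the deposited values. After cyclic loess (-0.82) and quantile normalization (-0.87) it was called lower. BMS1, the GTPase of the processome, rose by 0.51 at 24 h against 4 h (limma adjusted p = 0.0232), with 0.13 and 0.11 and no call after cyclic loess and quantile normalization. UTP4, UTP15, NOP14 and RRP12, other factors of the small subunit, had 24 h minus 2 h differences of 0.37, 0.09, 0.23 and 0.17 without a call.

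**Figure D4:**
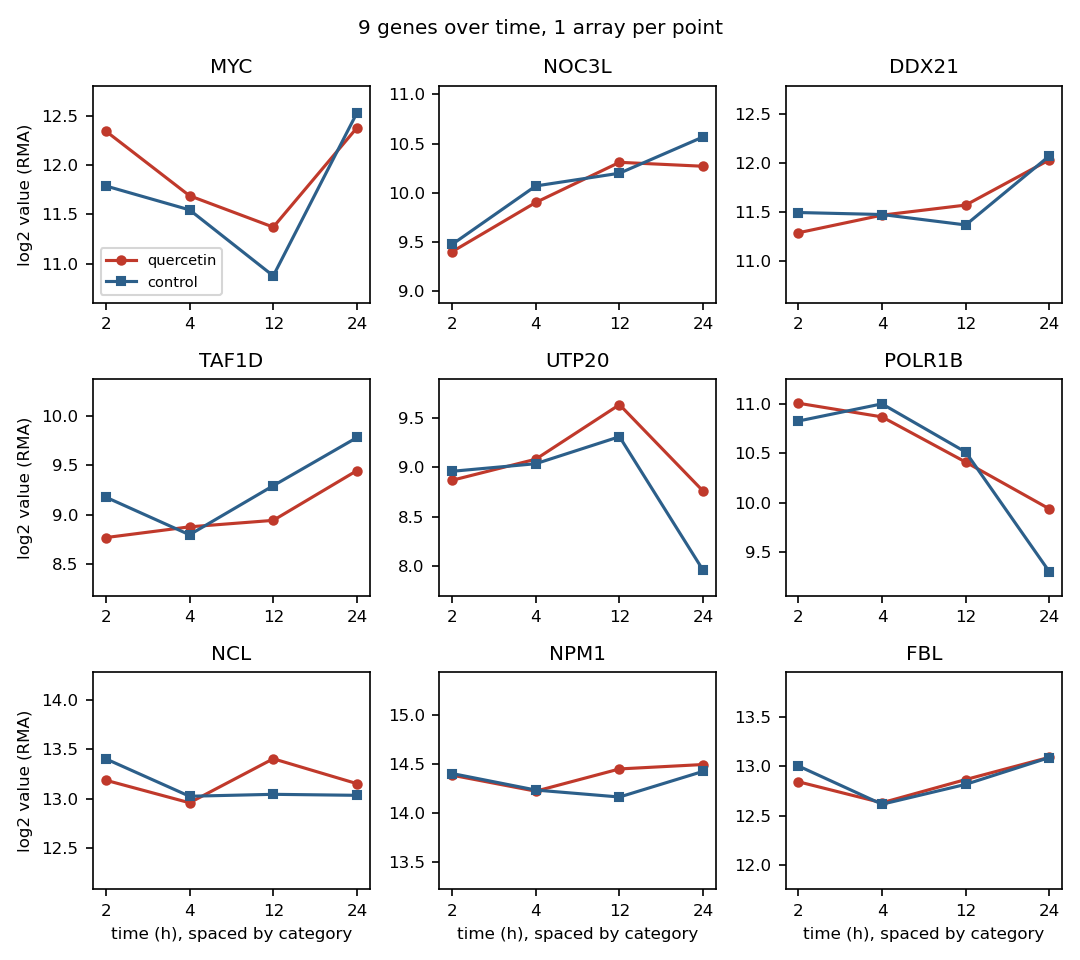
Signal of 9 genes (log2, RMA) at 2, 4, 12 and 24 h, with 1 array per point, quercetin in red circles and control in blue squares; each panel spans the same range in log2 units. MYC is lowest at 12 h in both treatments, at 11.37 and 10.87, and NOC3L is lowest at 2 h, at 9.40 and 9.48.

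Of the 9 large-subunit factors measured, NOC3L was the only 1 called at 24 h against 2 h in the deposited values. PES1, which with BOP1 and WDR12 forms a complex needed to process the large-subunit RNA, read 9.95, 10.02, 10.19 and 10.34 in the quercetin arrays at 2, 4, 12 and 24 h, against 10.22, 9.81, 10.02 and 10.45 in the control arrays. PES1 rose by 0.48 at 24 h against 4 h (limma adjusted p = 0.0304) and was at 0.09 and 0.06 without a call after cyclic loess and quantile normalization. WDR12 had a 24 h minus 2 h difference of 0.38 (limma adjusted p = 0.058). NOP2, a methyltransferase of the large-subunit RNA, had both 4 h arrays above the other 6, at 11.26 with quercetin and 10.95 in control. At 24 h against 4 h NOP2 was at -0.36 without a call in the deposited values. It was called lower after cyclic loess (-0.82, limma adjusted p = 0.000339) and quantile normalization (-0.86, limma adjusted p = 0.000268). The 6 others, NOP2, NOP16, NOC2L, RRS1, RRP1B and MRTO4, had 24 h minus 2 h differences from -0.12 to 0.17 without a call. Against 4 h, RRS1, RRP1B and MRTO4 were called lower at 24 h after cyclic loess (-0.42, -0.37 and -0.49) and quantile normalization (-0.47, -0.41 and -0.52).

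**Figure D5:**
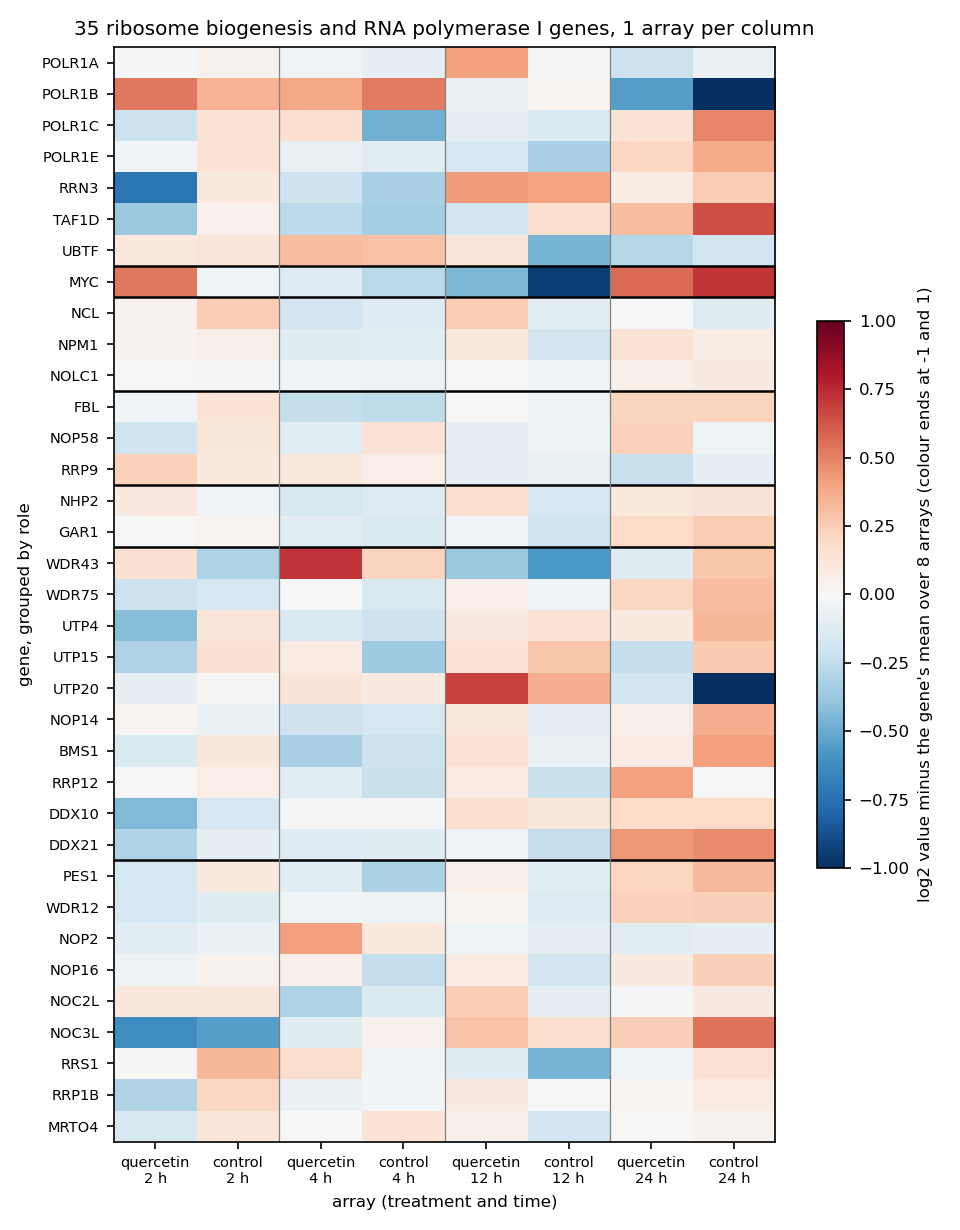
Signal of the 35 genes on each of the 8 arrays, as the log2 value minus the gene's mean over the arrays (colour, ends at -1 and 1), grouped by role and ordered by time with quercetin left of control. POLR1B and UTP20 are low on the 24 h arrays and NOC3L on the 2 h arrays; both 24 h arrays lie above the other 6 in 12 of the 35 genes in the deposited values, beside 29.6% of all genes.

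The rest of the ribosome biogenesis pathway was taken from lists of genes by role. In the deposited values, 5 of 16 other RNA polymerase I subunits and initiation factors tested were higher and 0 lower at 24 h against 2 h, beside 17.3% and 3.98% of all genes. After quantile normalization these counts were 3 and 1, and 15.5% of all genes were called in either direction. That share also stands beside the other counts after quantile normalization in this paragraph. Among 44 other small-subunit factors 6 were higher and 2 lower in the deposited values, and 4 and 3 after quantile normalization. Among 43 other large-subunit factors 7 were higher and 1 lower, and 1 and 2 after quantile normalization. None of these lists had a gene called for quercetin. TBP, a subunit of SL1, rose by 0.84 at 24 h against 2 h (limma adjusted p = 0.0054) and by 0.77 after quantile normalization (limma adjusted p = 0.0217). TSR1, a small-subunit factor, fell by 0.76 (limma adjusted p = 0.00175) and by 0.99 after quantile normalization.

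Cytosolic ribosomal protein genes, the other large class of ribosome genes, had 1 of 28 called higher at 24 h against 2 h, beside 17.3% of all genes, RPL18 at 0.29 (limma adjusted p = 0.0255), and a median of 0.06. Against 4 h, 11 of 28 were higher at 24 h and 0 lower in the deposited values, beside 32.8% and 9.45% of all genes. After cyclic loess 0 were higher and 21 lower, beside 32.4% of all genes called in either direction. After quantile normalization 1 was higher and 1 lower, beside 31.2% in either direction.

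MYC acts with MAX, and the MXD proteins compete with it for MAX. Of 13 genes of this network tested, 5 were called higher and 0 lower at 24 h against 2 h in the deposited values, beside 17.3% and 3.98% of all genes. After quantile normalization 4 were higher and 1 lower, beside 15.5% of all genes called in either direction. MXI1, an antagonist of MYC, read 10.10, 9.92, 10.02 and 11.83 in the quercetin arrays at 2, 4, 12 and 24 h, against 10.36, 9.87, 10.07 and 11.91 in the control arrays. It rose by 1.64 at 24 h against 2 h (SE 0.16, limma adjusted p = 7.01e-07), and by 1.34 after quantile normalization. MXD1, another antagonist, rose by 0.99 at 12 h against 2 h (limma adjusted p = 0.00899), the time at which MYC was lowest, and by 1.03 after quantile normalization. MAX rose by 0.95 at 24 h against 2 h (limma adjusted p = 0.00124), and by 0.66 after quantile normalization.

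Genes that MYC is known to repress or that mark cells leaving the cycle formed a list of 8, of which 6 were tested. Of the 6, 5 were higher at 24 h against 2 h in the deposited values, beside 17.3% of all genes, and 3 after quantile normalization, with 0 lower in both. After quantile normalization 15.5% of all genes were called in either direction. CCNG2, a cyclin linked to growth arrest, read 7.56, 7.67, 10.20 and 11.01 in the quercetin arrays at 2, 4, 12 and 24 h, against 7.96, 8.51, 10.12 and 11.49 in the control arrays. It rose by 3.49 at 24 h against 2 h (SE 0.20, limma adjusted p = 1.02e-09), and by 3.24 after quantile normalization. CDKN1B, a cell-cycle inhibitor, rose by 0.94 (limma adjusted p = 0.000105). Of 26 MYC targets outside ribosome biogenesis, 4 were higher and 0 lower in the deposited values, beside 17.3% and 3.98% of all genes. After quantile normalization 1 was higher and 4 lower, beside the same 15.5% of all genes in either direction.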

How the data were processed

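RNA from HepG2 cells was hybridised to 8 human expression arrays, 1 per treatment and time. The authors deposited a table of log2 values of 54675 probe sets, and the submitters' processing notes name RMA as the tool behind it, without its settings. Probe sets were named from the platform annotation, symbols were updated through gene IDs, and the brightest of the probe sets with 1 symbol (41091) stood for a gene. Genes above the median mean signal (7.43), 13298 in all, entered the test, limma 3.58.1 under R 4.3.3 (additive model of time and treatment, 3 residual degrees of freedom, trended eBayes, Benjamini-Hochberg over all genes, threshold 0.05), after the scripts were tested on simulated data. In the additive model the residual spread behind the p-values is how the quercetin minus control difference varies over the times. The time contrasts rest on that same spread. No treatment and time has a second array, so spread between replicates does not enter, and the times are not replicates. The members and lists were chosen with earlier results of these data known. Per-array values are printed for 10 genes fixed by name (8 of them measured) and the 6 largest rises and falls at 24 h against 2 h, plus members singled out after their values were seen (PES1, WDR43). List genes are at most 3 per list, by size. Alternatives changed the filter, probe set choice, scaling, variance model, block and array set. No depth exists for arrays; their number limits precision.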

Additional observations from a re-analysis of the deposited data

Results flagged for a closer look

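In 3 of the 35 genes the 24 h minus 2 h difference was at least 0.1 in size in both arms and opposite in sign; each arm holds 1 array per time, and the difference between arms was not tested. NOP58 had 0.43 in the quercetin arm and -0.15 in the control arm, from 12.59 at 24 h and 12.16 at 2 h with quercetin and 12.32 at 24 h and 12.47 at 2 h in control. RRP1B had 0.32 in the quercetin arm and -0.12 in the control arm, where its quercetin array at 2 h, at 11.39, was the lowest of the 8. Its other probe set went the other way in the quercetin arm, from 9.26 at 2 h to 8.69 at 24 h. In control that set read 9.09 and 9.08. After quantile normalization RRP1B had 0.02 and -0.35, so its quercetin arm no longer reached 0.1 in size, while NOP58 had 0.18 and -0.36 and WDR43, described next, had -0.56 and 0.33. WDR43 had -0.28 in the quercetin arm and 0.59 in the control arm. At 2 h the quercetin array had an 18S control signal of 12.01 and the control array one of 8.57, and the part of that gap in these values was not tested.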

How the results depend on the processing

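The count of members called for quercetin was 0 under all 24 alternatives. The counts with arrays left out, given next, have no share of all genes from the same fits beside them. Leaving out arrays or a pair gave 0 to 2 calls for the later against earlier quercetin difference, 5 to 11 for the F-test, 0 to 4 at 4 h against 2 h, 0 to 3 at 12 h against 2 h, 2 to 8 at 24 h against 2 h and 2 to 14 at 24 h against 4 h. At 24 h against 4 h 18 members were called after median centring, and the F-test called 16 after quantile normalization. At 12 h against 2 h 1 was called with probe sets free of cross-match suffixes and 0 with the array class as a term. The median quercetin difference turned to 0.024 at 2 h after quantile normalization, and at 24 h to 0.041 after cyclic loess and 0.033 after quantile normalization.

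Among single genes whose mean quercetin difference was not called, the sign turned for UBTF (-0.038) with suffix-free probe sets, for POLR1A (-0.056), POLR1B (-0.009) and DDX21 (0.154) with the mean of the probe sets, for FBL (0.003), DDX21 (0.036) and DDX10 (0.011) after cyclic loess, for DDX21 (0.039) and DDX10 (0.006) after quantile normalization, for RRP9 after median centring (-0.018) and under array weights (-0.001), and for FBL (0.022), RRP9 (-0.036), DDX21 (0.052) and DDX10 (0.019) once array class entered as a term. Leaving out arrays, these ran from -0.031 to 0.196 for UBTF, -0.047 to 0.143 for POLR1A, -0.018 to 0.239 for POLR1B, -0.055 to 0.138 for NCL, -0.048 to 0.022 for FBL, -0.036 to 0.052 for RRP9, -0.084 to 0.052 for DDX21, -0.089 to 0.019 for DDX10 and -0.012 to 0.072 for WDR75. At 24 h against 2 h POLR1A turned to 0.069 with the mean of the probe sets, NPM1 to -0.098 after cyclic loess and -0.005 after quantile normalization (-0.0 to 0.131 leaving out arrays), and FBL to -0.041 and -0.014. At 24 h against 4 h FBL turned to -0.005 and NPM1 to -0.218 after cyclic loess, and NOC3L to -0.005 after quantile normalization. The cause was not tested. The 2 arrays of a time were paired as a block in the fit, and without that block 0 members were called for quercetin.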

Other observations

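Of 12 factors that assemble small nucleolar RNPs, 6 were called higher and 0 lower at 24 h against 2 h, and 2 and 0 after quantile normalization. Beside these, 17.3% of all genes were higher and 3.98% lower in the deposited values. After quantile normalization 15.5% of all genes were called in either direction. ZNHIT3, one of these assembly factors, read 10.07, 9.71, 10.11 and 11.09 in the quercetin arrays at 2, 4, 12 and 24 h, against 10.34, 9.78, 10.21 and 11.17 in the control arrays, and rose by 0.92 at 24 h against 2 h (limma adjusted p = 0.000384), or by 0.63 after quantile normalization. Of 14 genes of the RNA exosome and its nuclear partners, which trim precursor ends, 6 were higher and 0 lower, and 1 and 0 after quantile normalization. Of 20 RNA polymerase III subunits and factors, which make the smallest ribosomal RNA, 4 were higher and 0 lower, and 2 and 0 after quantile normalization; POLR3E rose by 0.87 (limma adjusted p = 0.000494). None of these lists had a gene called for quercetin.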
